A study of Mus musculus with 10 samples.

Results

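The miRNAs miR-451, miR-144 and miR-486 are the miRNAs by which red blood cells are best known. They were followed here in whole liver of control mice and of Tsc1 mutant mice. They are the 3 entries, of 285 mature miRNAs in the deposited table, whose names are miR-451, miR-451a, miR-144 or miR-486 once the species prefix and the arm are removed. The libraries came from livers of 14-week-old mice, 5 littermate controls and 5 Tsc1 mutants, which the labels call L-Tsc1KO, a liver knockout. The labels used here do not give the driver of the deletion, the strain or the sex. Tsc1 encodes a subunit of the complex that restrains the kinase mTORC1. Nothing in the labels says that each library is a separate mouse, so the p-values and SDs measure the spread between libraries. Where n is given, it counts libraries.

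The genes of miR-144 and miR-451 lie side by side and are transcribed together in erythroid cells under the factor GATA1. Maturation of miR-451 is unusual because its short hairpin is cut by the slicer AGO2 and not by Dicer, so that the mature strand runs from the stem into the loop. The gene of miR-486 lies in Ank1, which encodes the red cell membrane protein ankyrin 1, and miR-486 is also abundant in striated muscle. All 3 stay in circulating red cells after the nucleus is lost, so liver that is not flushed carries them with its blood. Haemoglobin messenger RNA was not measured here, so blood content was read only from miRNAs.

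RefSeq sequences (GRCm38.p6) were found for 2 of the 3 members and are shown because they set the hairpins side by side. In the hairpins, written 5′ to 3′, capitals mark the mature strands, 2 for the Dicer product miR-144 and 1 for miR-451, which reaches the loop.
Mir144: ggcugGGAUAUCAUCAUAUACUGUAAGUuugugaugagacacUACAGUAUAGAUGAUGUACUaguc
Mir451a: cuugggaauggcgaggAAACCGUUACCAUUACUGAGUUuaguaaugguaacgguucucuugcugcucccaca
The mature sequences follow, with the seed, bases 2 to 8, in capitals.
miR-144-5p: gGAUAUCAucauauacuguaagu
miR-144-3p: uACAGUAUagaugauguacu
miR-451a: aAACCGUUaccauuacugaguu
miR-101a-3p: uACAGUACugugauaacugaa
The seeds of miR-144 and miR-451 differ. The table lists miR-144 without an arm. The 3p arm shares bases 2 to 7 with miR-101a-3p, printed for that reason, which the table also holds and whose log2 fold change between genotypes was 0.09 ± 0.22 (SE).

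The Mir144 hairpin lies on the plus strand of chromosome 11 at chr11:78073005-78073070 and Mir451a on the same strand at chr11:78073170-78073241 (GRCm38), with 99 bases between them. No other gene of the GENCODE M21 annotation overlaps either, except Mir451b on the opposite strand of Mir451a. Mir486 lies on the plus strand of chromosome 8 at chr8:23142555-23142682, in an intron of Ank1, which is on the same strand. Mir3107, which RefSeq also lists as mir-486b, lies on the opposite strand at chr8:23142573-23142662, and all 90 of its bases fall within Mir486.

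The libraries held between 6228497 and 12129069 miRNA reads. Values are normalised reads, which are read counts that the authors divided by 1 factor per library. The hepatocyte miRNA miR-122 led the table, averaging 3174502 ± 763064 normalised reads over control livers and 2699953 ± 444089.7 over mutant livers (SD, n = 5 per genotype). Control replicate 1 and Tsc1 mutant replicate 1 stood apart from the rest of their groups in the same direction across miRNAs (r = 0.81 between their deviations over 285 miRNAs, which are not independent), so results are also given without both.

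The miRNA miR-451, a regulator of late erythroid maturation, was highest in control replicate 1 and next highest in Tsc1 mutant replicate 1. In control replicates 1 to 5 it was at 3643, 1731, 1135, 1117 and 1504 normalised reads. In the mutant replicates 1 to 5 it was at 2485, 1186, 1236, 1579 and 1678. The other 4 controls lay between 1117 and 1731, and the groups overlapped. As a share of miRNA reads miR-451 lay between 0.0107% and 0.0427% in controls and between 0.0128% and 0.0272% in mutants. The share in control replicate 1 rested on 4559 reads (95% exact binomial interval 0.0415 to 0.0440%), so counting error was small beside the spread between libraries. Reads are not independent molecules, and such intervals cover counting error only.

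The neighbour miR-144, which targets regulators of erythroid growth and of the oxidative stress response, was lower than miR-451 in every library and had a similar SD within genotypes in the 8 libraries outside the replicates numbered 1, 0.27 against 0.28 on the log2 scale. It was at 1277, 928, 666, 744 and 767 normalised reads in control replicates 1 to 5. In the mutants it was at 1034, 937, 838, 1404 and 1184. All 5 mutants lay above the control median of 767, while control replicate 1 lay above 4 of the 5 mutants, so the groups overlapped. Its share of reads lay between 0.00644% and 0.0150% in controls and between 0.00927% and 0.0151% in mutants.

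The Ank1-borne miR-486, known in muscle as a regulator of FOXO1, was the most abundant of the 3 by mean. Control replicates 1 to 5 had 1004, 2699.7, 3189, 2026 and 2699.8 normalised reads. The mutants had 2075, 1971, 1358, 3551 and 3455. Control replicate 1, the library highest in miR-451, was the lowest of all 10 in miR-486. Mutant replicates 4 and 5 were the highest of all, and the groups overlapped.

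**Figure D1:**
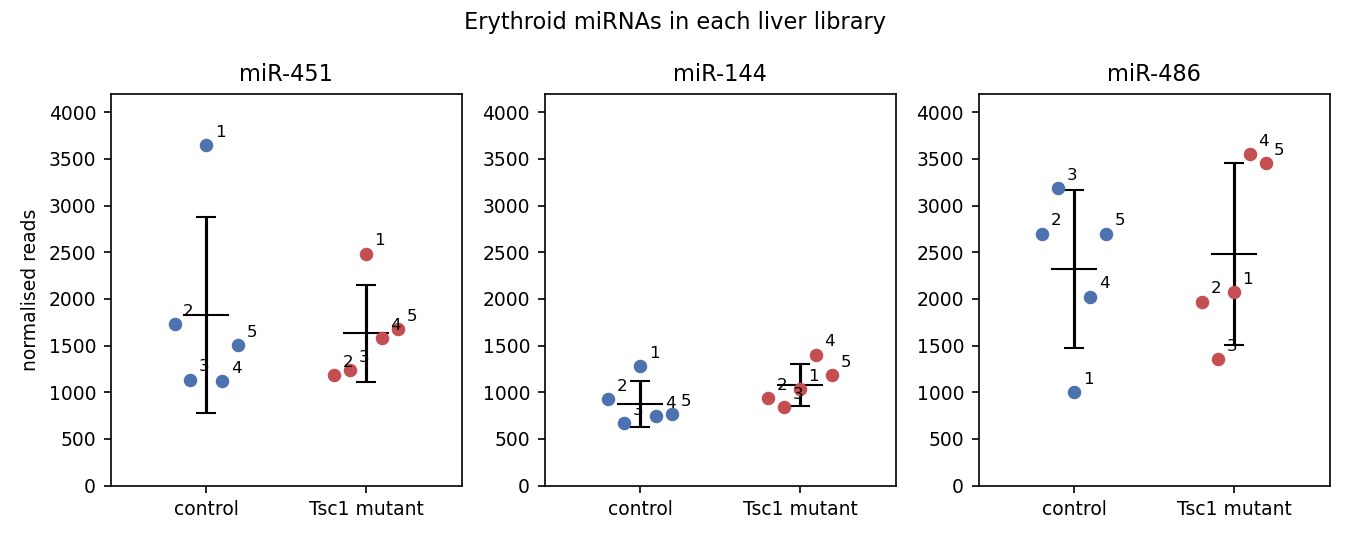
Normalised reads (vertical axis, from 0) of miR-451, miR-144 and miR-486 in the 5 control and 5 Tsc1 mutant libraries. Each point is a library with its replicate number, the horizontal bar is the group mean and the whiskers are 1 SD. Control replicate 1 is the highest point for miR-451 (3643) and the lowest for miR-486 (1004).

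The values of miR-486 were listed a second time in the table. The entry miR-3107, whose RefSeq gene is also called mir-486b, held from 1206 to 3781 reads and followed miR-486 in every library. Division by the value of 1 read gave 1256 reads for both in control replicate 1, and 1204 for miR-486 against 1206 for miR-3107 in control replicate 4. In the other 8 libraries miR-486 had between 7 and 21 more reads than miR-3107. The largest gap between both entries over the 10 libraries was 0.013 on the log2 scale, against 0.26 for the next closest pair of entries in the table. Both names therefore carry nearly the same number of reads, and they were counted here as 1 measurement. Whether the same reads were counted under both names was not tested, because reads were not used here.

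None of the 3 miRNAs passed the test for a difference between genotypes. With limma on log2(normalised reads + 1) and p-values adjusted over all 285 miRNAs, 0 of 3 passed in either direction, against 13.0% of the whole table (10.9% higher and 2.11% lower in mutants). None had an unadjusted p below 0.05, against 64 of all 285, and limma-voom on whole reads also called 0. In 0 of the 3 were the groups free of overlap, against 12.6% of the table.

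Control livers averaged 1826 ± 1048 normalised reads of miR-451 and mutant livers 1633 ± 522 (SD, n = 5 per genotype). The fitted log2 fold change was -0.06 ± 0.33 (SE, 95% interval -0.79 to 0.66, limma adjusted p = 0.957). Control livers averaged 876 ± 243 normalised reads of miR-144 and mutant livers 1079.5 ± 222 (SD, n = 5 per genotype). The fitted log2 fold change was 0.32 ± 0.21 (SE, 95% interval -0.14 to 0.78, limma adjusted p = 0.444). Control livers averaged 2324 ± 846 normalised reads of miR-486 and mutant livers 2482 ± 972 (SD, n = 5 per genotype). The fitted log2 fold change was 0.11 ± 0.35 (SE, 95% interval -0.67 to 0.88, limma adjusted p = 0.951). All 3 intervals include 0 and hold changes of either sign, so the test does not show equal levels. The median of the 3 log2 fold changes was 0.11, and that of all 285 miRNAs was -0.06.

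The signs for miR-451 and miR-486 turned on single libraries. Without control replicate 1 the log2 fold change was 0.22 ± 0.23 (SE) for miR-451 and -0.17 ± 0.28 (SE) for miR-486, both opposite in sign to the values with all libraries. That of miR-451 was also above 0 without Tsc1 mutant replicate 2 (0.038) or 3 (0.024), and that of miR-486 below 0 without Tsc1 mutant replicate 4 (-0.047) or 5 (-0.037). For miR-144 the sign held without any 1 library. Without control replicate 1 it was 0.46 ± 0.17 (SE), with an unadjusted p of 0.0238 and an adjusted p of 0.103 in limma. Without both replicates numbered 1 it was 0.47 ± 0.18 (SE, limma adjusted p = 0.113), and the groups still overlapped, from 666 to 928 normalised reads in controls and from 838 to 1404 in mutants.

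In whole liver RNA, fewer cells of a type and less RNA per cell cannot be told apart, and red cells held in the vessels cannot be told apart from erythroid cells in the tissue. The summed level of the 3 miRNAs, with miR-486 counted once, averaged 5026 ± 745 normalised reads over control livers and 5194 ± 1372 over mutant livers (SD, n = 5 per genotype). The lowest sum was 3431 in mutant replicate 3 and the highest 6533 in mutant replicate 4. Within controls the sums ran from 3886 to 5924. The range within mutants was therefore wider than that within controls and covered it on both sides.

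The 3 miRNAs did not keep one order across libraries. In 8 of the 10 libraries miR-486 exceeded miR-451, which exceeded miR-144. In Tsc1 mutant replicate 1 miR-451 came first, then miR-486 and miR-144, and in control replicate 1 miR-486 came last. Small RNA libraries capture different sequences with different efficiency, so the order within a library is one of reads and not of molecules. A ratio of 2 miRNAs does not depend on how a library was scaled, and its change between libraries can be compared.

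The ratio of the cluster neighbours miR-451 and miR-144 was the steadiest of the 3 in controls, with an SD of 0.35 on the log2 scale, while in mutants its SD of 0.42 lay above the 0.33 of miR-144 to miR-486. Without the replicates numbered 1 its SD was 0.17 in controls and 0.18 in mutants, the lowest of the 3 in both. It was 2.85, 1.87, 1.70, 1.50 and 1.96 in control replicates 1 to 5. In the mutants it was 2.40, 1.27, 1.47, 1.12 and 1.42. Each replicate 1 was the highest of its genotype. On the log2 scale the mutant mean differed from the control mean by -0.38 ± 0.24 (SE), with an exact 2-sided permutation p of 0.167 (adjusted p = 0.685 over 15 ratios). The smallest p that this design allows is 0.00794.

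Without both replicates numbered 1, all 4 mutants lay below all 4 controls in this ratio, from 1.12 to 1.47 against 1.50 to 1.96. The log2 difference was then -0.41 ± 0.12 (SE, exact permutation p = 0.0286, the smallest that 4 against 4 allows, adjusted p = 0.257). No other of the 15 ratios had groups free of overlap in the same 8 libraries. Of the single miRNAs, 22.8% had, in either direction. The ratios without these libraries were computed after the values were seen. Without Tsc1 mutant replicate 1 alone the difference was -0.55 ± 0.18 (SE, exact permutation p = 0.0159, adjusted p = 0.238). Without control replicate 1 alone it was -0.24 ± 0.21 (SE, exact permutation p = 0.317, adjusted p = 0.524), so its size depended on which replicate 1 was kept.

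The ratio of miR-451 to miR-486 moved far more. It was 3.63 in control replicate 1 and between 0.356 and 0.641 in the other controls. Among mutants it was 1.20 in replicate 1 and between 0.445 and 0.910 in the others. The 2 libraries above 1 were the replicates numbered 1. Its log2 difference between genotypes was -0.17 ± 0.64 (SE, exact permutation p = 0.849), and it was 0.39 ± 0.33 (SE) without control replicate 1.

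The ratio of miR-144 to miR-486 was 1.27 in control replicate 1 and between 0.209 and 0.367 in the other controls, against 0.343 to 0.617 in mutants. The log2 difference was 0.21 ± 0.47 (SE, exact permutation p = 0.706). Without control replicate 1 it was 0.63 ± 0.23 (SE, exact permutation p = 0.0397, adjusted p = 0.198). The spread of this ratio within controls, an SD of 1.00 on the log2 scale, was 0.36 without that library. Without control replicate 3, the lowest, the difference between genotypes was -0.018.

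**Figure D2:**
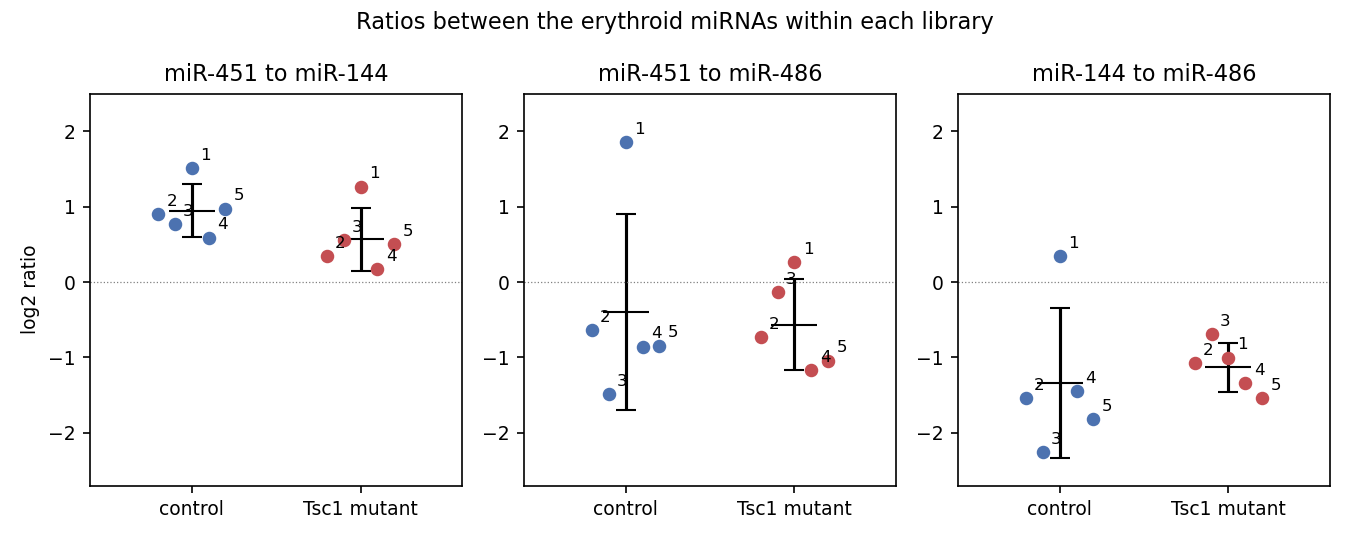
Log2 ratios of miR-451 to miR-144, miR-451 to miR-486 and miR-144 to miR-486 (vertical axis) in each control and Tsc1 mutant library. Points carry replicate numbers, bars are group means and whiskers 1 SD. Control replicate 1 is the highest control in all 3 panels.

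Ratios to miRNAs of other cells gave no call either. Each member was set against miR-122 of hepatocytes, miR-126-3p of endothelium, miR-223 of myeloid cells, and miR-16, which red cells and most tissues make. Over these 12 ratios the log2 differences ran from -0.40 for miR-451 to miR-16 to 0.78 for miR-144 to miR-223. The first was -0.13 ± 0.36 (SE) without control replicate 1. That of miR-144 to miR-223 was 0.78 ± 0.40 (SE, exact permutation p = 0.0952, adjusted p = 0.685), with miR-223 itself at -0.46 (limma adjusted p = 0.608). Relative to hepatocytes, miR-144 to miR-122 was 0.53 ± 0.35 (SE, exact permutation p = 0.175). It was 0.82 ± 0.24 (SE, exact permutation p = 0.0159, adjusted p = 0.179) without control replicate 1. Relative to endothelium, miR-144 to miR-126-3p was 0.34 ± 0.30 (SE), and 0.60 ± 0.15 (SE, exact permutation p = 0.0238, adjusted p = 0.179) without that library.

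Correlations within genotypes differed in sign between the pairs, and none of the 3 passed after adjustment, except miR-451 with miR-144 when libraries were scaled by total reads (r = 0.84, exact permutation, adjusted p = 0.0448). After removal of genotype means, the correlation of miR-451 with miR-144 over 10 libraries was r = 0.77 (exact permutation p = 0.0254, adjusted p = 0.0777 over 18 correlations). Spearman's rho was 0.83 (exact permutation p = 0.00903, adjusted p = 0.0716). Without control replicate 1 and Tsc1 mutant replicate 1, the libraries farthest from the median in miR-451, r was 0.81 (exact permutation p = 0.0330, adjusted p = 0.260).

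For miR-451 and miR-486 r was -0.42 (exact permutation p = 0.263, adjusted p = 0.315) and rho was -0.12 (exact permutation p = 0.760). Without the same 2 libraries r was 0.58 (exact permutation p = 0.153), so the sign rested on them. For miR-144 and miR-486 r was -0.11 (exact permutation p = 0.773, adjusted p = 0.773) and rho was 0.12 (exact permutation p = 0.765). Without control replicate 1 and Tsc1 mutant replicate 4, the farthest in miR-144, r was 0.58. In the 8 libraries that are left without both replicates numbered 1 it was 0.73 (exact permutation p = 0.156). All 3 pairs were thus positive in the 8 other libraries, and none passed after adjustment.

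**Figure D3:**
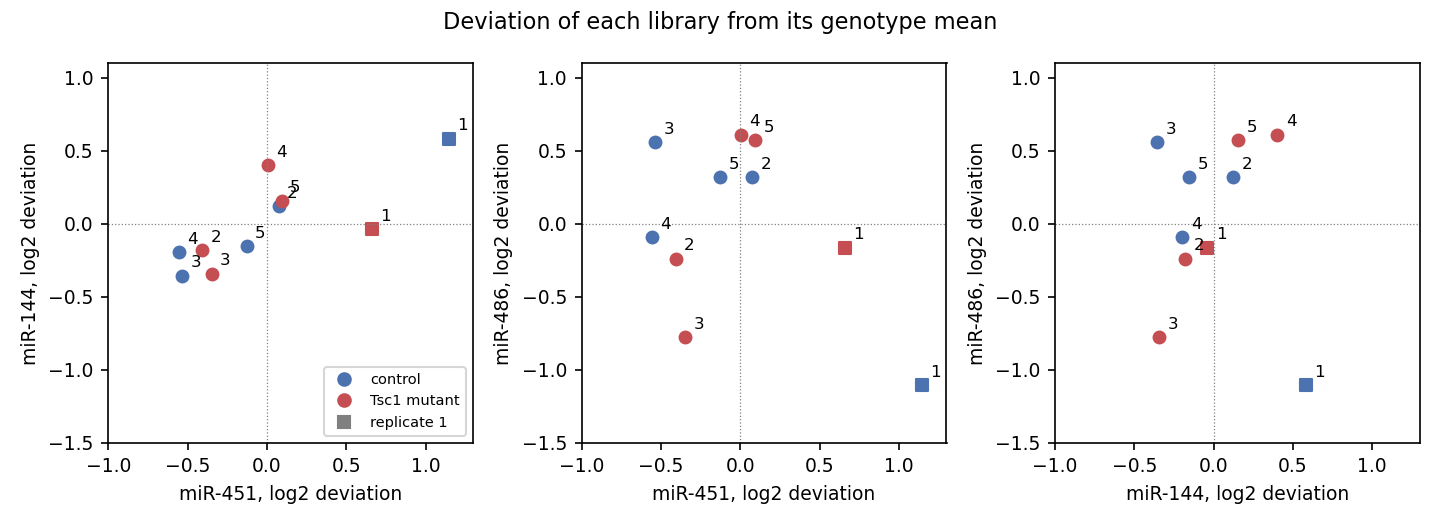
Deviation of each library from its genotype mean, on the log2 scale, for each pair of the 3 miRNAs. Circles are replicates 2 to 5 and squares the replicates numbered 1. For miR-451 and miR-144 r is 0.77, with Tsc1 mutant replicate 1 high in miR-451 and near 0 in miR-144, while control replicate 1 lies at the lower right of each panel that has miR-486 on the vertical axis.

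The size of the departure in the replicates numbered 1 differed between the members. In controls, miR-451 in replicate 1 exceeded the median of the other 4 libraries by 1.48 on the log2 scale, the 24th highest excess of the 285 miRNAs. The excess was 0.76 for miR-144, and that of miR-486 was -1.43, rank 268. In mutants the values were 0.83 for miR-451, rank 32, -0.03 for miR-144 and -0.33 for miR-486. Depth in these libraries was 10677652 reads in the control and 10522653 in the mutant, within the range of the others. The summed hepatocyte miRNAs were lowest of their genotype in both, at 3424625 normalised reads in the control and 3713771 in the mutant, and so were the summed arms of miR-126, at 113035 and 114892. Within genotypes, miR-451 had r = -0.84 with the hepatocyte sum (exact permutation p = 0.0122, adjusted p = 0.0733), -0.81 with the miR-126 sum (exact permutation p = 0.0303, adjusted p = 0.0779) and -0.74 with the sum of 6 miRNAs known to fall in erythroid maturation (exact permutation p = 0.0229, adjusted p = 0.0777). Without both replicates numbered 1 these were -0.46, 0.31 and -0.71. Most of the sum of 6 was miR-24 and miR-221, so its r says little of the other members. In controls miR-24 and miR-221 averaged 12109 and 9435 of a mean sum of 26426 normalised reads. In mutants they averaged 11907 and 8808 of 24016. The part of the cells in the piece of liver taken in the departure of the replicates numbered 1 was not tested.

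Other miRNAs abundant in red cells gave no common difference. Of 10 listed, among them miR-16, miR-15b, miR-25, miR-185 and miR-107, 0 rose and 0 fell, 7 had a log2 fold change above 0, and the median was 0.03. Of all miRNAs 13.0% passed, 121 of 285 were above 0 and the median was -0.06. The most abundant, miR-92a, averaged 55675 ± 22560.3 normalised reads over control livers and 37434 ± 5014 over mutant livers (SD, n = 5 per genotype), at a log2 fold change of -0.47 (limma adjusted p = 0.410). That of miR-16 was 0.33 and that of miR-107 0.29, with unadjusted limma p-values of 0.0365 and 0.0459 and limma adjusted p-values of 0.179 and 0.205. Summed over the list, levels lay between 71756 and 132924 in controls and between 76801 and 96901 in mutants. The largest part of this sum was miR-92a, at 55675 of a mean of 103833 normalised reads in controls and 37434 of 88387 in mutants. The 10 listed miRNAs are made by most tissues, and their sum was lowest within both genotypes in replicate 1, where miR-451 was highest. The correlation of the sum with miR-451 was r = -0.87 (exact permutation p = 0.00493, adjusted p = 0.0444) and rho = -0.70 (exact permutation p = 0.0528, adjusted p = 0.119). Without the 2 libraries farthest in the sum r was -0.68, and without both replicates numbered 1 it was -0.61 (exact permutation p = 0.241), so the call rested on those libraries.

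White cells, which share the vessels with red cells, were followed through 9 leukocyte entries, among them both arms of miR-142 and of miR-342. None passed, against 13.0% of the table, with a median log2 fold change of -0.21. Of the 9, 4 were above 0 and 5 below, against 121 and 164 of all 285. The most abundant, miR-146a, which dampens innate immune signalling, was at -0.21 ± 0.18 (SE, limma adjusted p = 0.590). Lymphocyte miR-150 was the lowest of the 9 at -0.47 (limma adjusted p = 0.129), and miR-155 the highest at 0.49 (limma adjusted p = 0.338). The summed level of the 9 entries lay between 18637 and 32082 in controls and between 18101 and 26093 in mutants, highest in replicate 1 of each genotype. Most of this sum was miR-146a, which averaged 15115 of a mean sum of 23130 normalised reads in controls and 12961 of 21346 in mutants. Within genotypes this sum followed miR-451, with r = 0.97 (exact permutation p = 0.000556, adjusted p = 0.010) and rho = 0.92 (exact permutation p = 0.00139, adjusted p = 0.025). Without both replicates numbered 1, r was 0.82 (exact permutation p = 0.0347, adjusted p = 0.260). With miR-144 r was 0.77 over 10 libraries (exact permutation p = 0.0259, adjusted p = 0.0777) and 0.81 over 8 (exact permutation p = 0.0434). With miR-486 it was -0.34 over 10 (exact permutation p = 0.363) and 0.74 over 8 (exact permutation p = 0.0764). In the 8 libraries all 3 members thus had a positive r with the leukocyte sum, none past the threshold after adjustment.

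The remaining lists bear on erythroid maturation and on the tissue around the blood. Of 6 miRNAs known to fall as red cells mature or to hold maturation back, 0 passed, against 13.0% of the table, with a median log2 fold change of -0.26. Of the 6, 3 are also among the leukocyte miRNAs: miR-150, miR-155 and miR-223. Of the 6, 5 were below 0, against 164 of all 285, and 1 above. The most abundant, miR-24, was at -0.02. The lowest was miR-222, which restrains the receptor KIT, at -0.55 (limma adjusted p = 0.110). The 1 above 0 was miR-155, at 0.49 (limma adjusted p = 0.338). Both arms of the endothelial miR-126 were near 0, at -0.02 and -0.09. Of 5 hepatocyte miRNAs 1 rose, against 10.9% of the table, and it was miR-802, with 495 ± 165 normalised reads over control livers and 1583 ± 285 over mutant livers (SD, n = 5 per genotype) and a log2 difference of 1.72 ± 0.24 (SE, limma adjusted p = 0.000258).

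**Figure D4:**
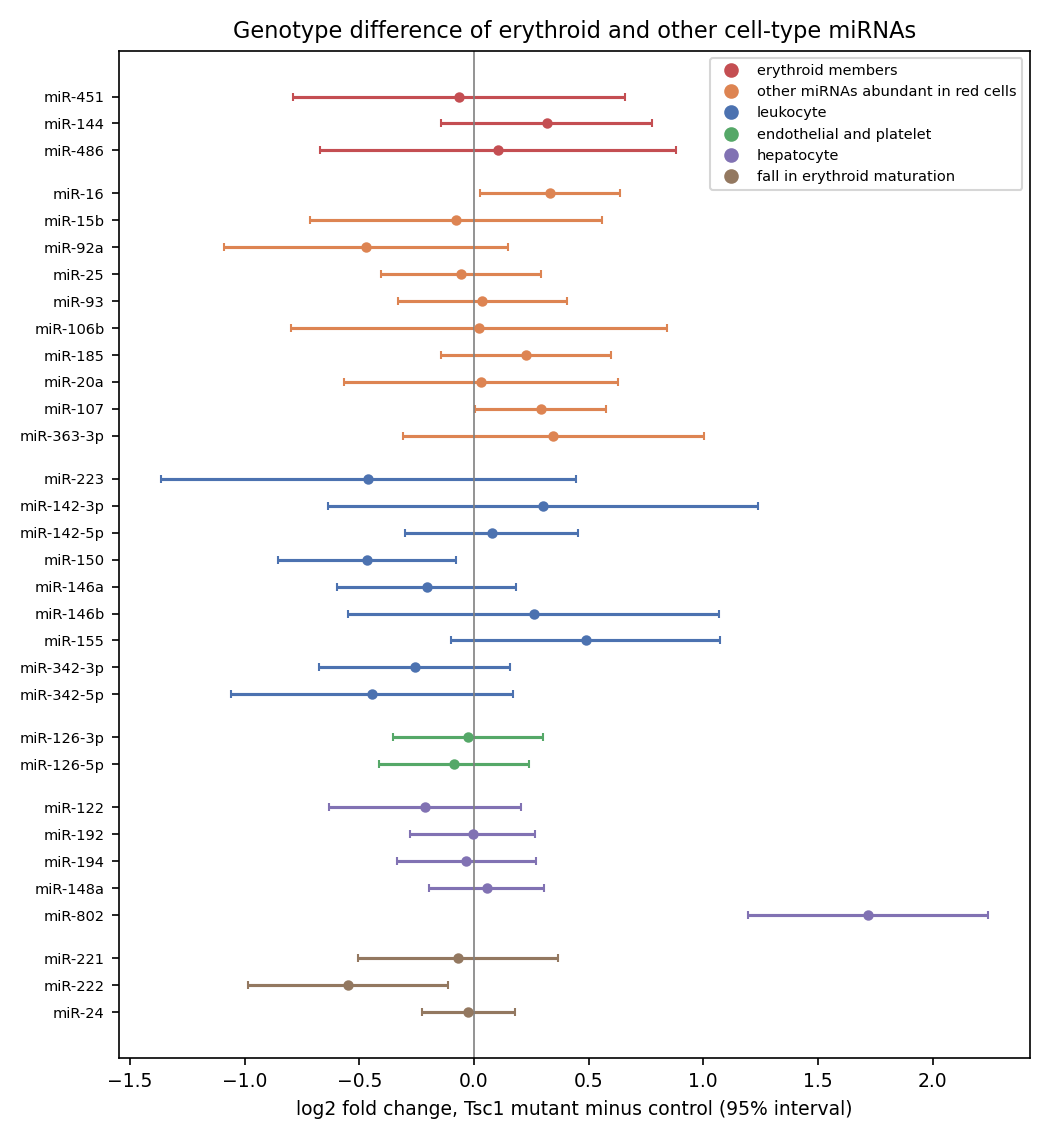
Log2 fold change between Tsc1 mutant and control livers (horizontal axis) with its 95% interval from limma for the 3 erythroid miRNAs and the members of 5 other lists, each miRNA drawn once. The intervals of miR-451, miR-144 and miR-486 include 0, and miR-802 (1.72) is the one listed miRNA that passed.

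The 5 miRNAs whose within-genotype deviations were most like those of each member over the 10 libraries did not coincide between members. For miR-451 they were miR-29b (r = 0.96), the blood cell miRNA miR-142-3p (0.96), miR-210 (0.93), miR-511-3p (0.93) and miR-146a (0.92), of which miR-142-3p and miR-146a are on the leukocyte list. For miR-144 they were miR-5113 (0.78), miR-652 (0.76), miR-181c (0.74), miR-137 (0.72) and miR-3964 (0.71). For miR-486 they were its second entry miR-3107 (1.00), miR-27b (0.92), miR-700 (0.90), miR-363-3p (0.87) and miR-215 (0.87). The values are the highest of many and carry no test. Of the 5 nearest to miR-486, miR-363-3p is on the list of other red cell miRNAs, averaging 9.86 normalised reads over control livers and 12.5 over mutant livers.

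By abundance, miR-486 ranked 77th, miR-451 89th and miR-144 102nd of the 285 miRNAs. The nearest entry above miR-486 was miR-19b and the nearest below it miR-3107. Around miR-451 were miR-676 and miR-17, and around miR-144 were miR-450a and miR-362-3p. The SD within genotypes on the log2 scale was 0.63 for miR-486, 0.58 for miR-451 and 0.33 for miR-144, against a median of 0.44 over all miRNAs. Without both replicates numbered 1 it was 0.51, 0.28 and 0.27, against a median of 0.31. In the 8 libraries miR-486 was thus the most variable of the 3, ranking 70th of 285, with miR-451 at 163 and miR-144 at 168.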

How the data were processed

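The authors deposited 1 table of normalised miRNA values, a signal in which read counts were divided by 1 factor per library. DESeq is the one tool in the submitters' processing notes, and its version is not given. RNA came from whole liver tissue homogenised in TRIzol, and small RNA libraries were run on an Illumina sequencer, per the labels' protocols. An aligner, a build, a miRNA annotation and filters were not given in the sources used. Each value was a whole multiple of 1 step per library within 0.001, which gave whole reads and depth. The library number in the labels tied each column to its sample.

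Values were compared as log2(value + 1) with limma 3.58.1 in R 4.3.3, with an intensity trend and Benjamini-Hochberg adjustment over all 285 miRNAs, at an adjusted p of 0.05. All 285 had a mean of at least 5 normalised reads. Fold changes on this scale understate those of low miRNAs. Ratios were compared by exact permutation over libraries, and correlations of within-genotype deviations by exact permutation within genotypes. The fit and the permutation tests were tested on simulated data. The members, lists and alternatives were chosen with earlier results of these data known. Named were all members, the most abundant and the called miRNAs of each list, the 5 miRNAs most like each member and its neighbours in abundance. Reference miRNAs of the ratios, other listed miRNAs, miR-101a and miR-3107 were named outside this rule, some after their values were seen. Hairpin positions are from GENCODE M21 (GRCm38).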

Additional observations from a re-analysis of the deposited data

Results flagged for a closer look

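Of 48 sets of 5 values of one genotype, 11 held a library set off by a wide gap (Dixon's gap test). For normally distributed values about 2.4 would be set off by chance. Untransformed reads and ratios were tested here, so 2.4 is not a chance rate for them. Many sets overlap, since ratios share members, so the 11 are not separate events. All 11 concern a replicate numbered 1.

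For miR-451, control replicate 1 had 3643 normalised reads, against 1117 to 1731 in the other 4 controls. It was also the highest control for the ratio of miR-451 to miR-486, at 3.63, and of miR-144 to miR-486, at 1.27. Against reference miRNAs it was the highest for miR-451 to miR-122 at 0.00177, miR-451 to miR-126-3p at 0.0383 and miR-144 to miR-126-3p at 0.0134. The summed miR-126 arms were lowest there, at 113035 normalised reads against 151157 to 160119.

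Tsc1 mutant replicate 1 was the highest mutant for the ratio of miR-451 to miR-144, at 2.40 against 1.12 to 1.47 in the others. It was likewise the highest for miR-451 to miR-122 at 0.00119, miR-451 to miR-126-3p at 0.0240 and miR-451 to miR-16 at 0.413.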

How the results depend on the processing

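None of the 3 miRNAs passed the threshold under any of 25 alternatives (pseudocount, filter, scaling, trend, array weights, replicate block, limma-voom, the table without miR-3107, and libraries left out). The log2 difference of miR-144 stayed above 0 in all 25, from 0.090 with quantile normalisation to 0.56 without both replicates numbered 1 and the second control. Its lowest limma adjusted p was 0.0566, with array weights. That of miR-451 changed sign with array weights (0.099), without both replicates numbered 1 (0.059) and without these and the second control (0.18), and that of miR-486 under the same alternatives (-0.17, -0.13 and -0.12). With 1 library left out at a time the range was -0.55 to -0.24 for the ratio of miR-451 to miR-144, -0.23 to 0.22 for miR-451, -0.17 to 0.30 for miR-486, -0.44 to 0.39 for the ratio of miR-451 to miR-486 and -0.018 to 0.63 for miR-144 to miR-486. For ratios to reference miRNAs it was -0.10 to 0.58 for miR-451 to miR-122, -0.28 to 0.36 for miR-451 to miR-126-3p, -0.14 to 0.11 for miR-144 to miR-16, -0.032 to 0.32 for miR-486 to miR-126-3p and -0.018 to 0.92 for miR-486 to miR-223. Without both replicates numbered 1, the differences of opposite sign were 0.19 for miR-451 to miR-486, 0.12 for miR-451 to miR-126-3p, 0.047 for miR-144 to miR-16 and -0.071 for miR-486 to miR-126-3p. Correlations that changed sign without the 2 farthest libraries were miR-451 with miR-486 (0.58), miR-144 with miR-486 (0.58), the endothelial sum with miR-451 (0.31) and with miR-144 (0.73), and the leukocyte sum with miR-486 (0.74). They were, without both replicates numbered 1, 0.58, 0.73, 0.31, 0.73 and 0.74. Scaling by total reads put the correlation of miR-451 with miR-144 at 0.84 (exact permutation, adjusted p = 0.0448), past the threshold. The leukocyte sum with miR-144 (0.85) and the hepatocyte sum with miR-451 (-0.84) also passed there, each at an adjusted p of 0.0448, and the endothelial sum with miR-144 was at 0.0030. The cause was not tested. Correlations between same-numbered deviations were 0.81, 0.16, -0.02, 0.46 and 0.05 for replicates 1 to 5. The best matching mutant had the same number for controls 1 and 4, and another number for controls 2, 3 and 5. These values do not settle whether equal replicate numbers pair the libraries. With the replicate block the log2 difference of miR-144 was 0.32 (limma adjusted p = 0.318), that of miR-451 -0.064 and that of miR-486 0.11, none past the threshold, and 45 of 285 miRNAs were called against 37 without it. A sign-flip test over same-numbered libraries, as a replicate block, gave an exact p of 0.0625 (adjusted p = 0.563) for miR-451 to miR-144, the smallest that 5 pairs allow, with the mutant lower in all 5. Array weights called 63. The planned edgeR and DESeq2 fits on whole reads were not run, and limma-voom, added after the data were seen, took their place. TMM and upper quartile factors were computed without edgeR.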

Other observations

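Over the 8 libraries without both replicates numbered 1, the entries most like miR-451 in their within-genotype deviations were miR-99b (r = 0.88), miR-96 (0.87) and the muscle miRNA miR-1a (0.84). None of the 5 nearest to miR-451 over all 10 libraries was among the 5 nearest over these 8. For miR-144 they were miR-700 (0.86), the blood cell miRNA miR-142-5p (0.85) and miR-27a (0.82). For miR-486 they were its second entry miR-3107 (1.00), miR-5122 (0.85) and miR-27b (0.85). These values are the highest of many and carry no test.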
